A study of Mus musculus with 2 samples.

Results

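The 9 transcription factor genes Spi1, Cebpa, Cebpd, Maf, Klf2, Klf4, Zeb2, Runx1 and Rara, which specify and maintain macrophages, were read in small peritoneal macrophages from endotoxemic mice. They were taken by name as listed myeloid factors, and all 9 were found among the 55487 genes of the count table. The LPS+LCC-12 library held sorted cells pooled from 8 mice (66967 cells) that were given LPS and then LCC-12, a compound known to target copper in mitochondria. The LPS library held sorted cells pooled from 7 mice (102283 cells) that were given LPS alone. All mice were 5-week-old male SWISS animals, an outbred stock. Each received 20 mg/kg of LPS from Escherichia coli O55:B5 into the peritoneum and, 6 h later, 30 mL/kg of saline under the skin. LCC-12 was given into the peritoneum at 0.3 mg/kg, also 6 h after LPS, and all mice were killed 22 h after LPS. Mice without LPS were not analysed here. Each group was 1 library, so differences between the groups have no replicate check, no test was possible, and every interval below covers counting error only.

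A macrophage is specified by a small set of transcription factors that act in combination on the same enhancers. PU.1, the product of Spi1, opens macrophage enhancers together with C/EBP factors and RUNX1. MAF factors hold macrophages in a mature, non-dividing state, KLF2 and KLF4 are zinc finger factors that restrain inflammatory gene expression, ZEB2 is a repressor that keeps tissue identity in macrophages, and the retinoic acid receptor RARα, the product of Rara, acts with RXR as a ligand-dependent switch. In the peritoneum, large macrophages depend on retinoic acid and GATA6, whereas small macrophages arise from blood monocytes.

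The deposited counts summed to 47721888 in the LPS+LCC-12 library and 50618409 in the LPS library. The 8 general macrophage markers summed to 8871 scaled CPM (a counts-per-million value) in the LPS+LCC-12 library and 7601 CPM in the LPS library. All 8 were within 2-fold, and their median log2 ratio, LPS+LCC-12 over LPS, was -0.02. Lyz2 alone had 4508 CPM in the LPS+LCC-12 library and 3049 CPM in the LPS library. Markers of small peritoneal macrophages (10 of 11 at least 2-fold higher, summing to 1657 CPM against 899 CPM in the LPS library) and of large ones (8 of 11 higher, 1915 CPM against 1200.3 CPM in the LPS library) were more abundant in the LPS+LCC-12 library. Neutrophil markers (8 of 12 at least 2-fold lower, 3547 CPM against 9352 CPM in the LPS library), monocyte markers (5 of 8 lower, 1463 CPM against 3249.6 CPM in the LPS library) and mast cell markers (5 of 7 with 50 or more counts lower, 68.7 CPM against 214 CPM in the LPS library) were less abundant there. The 8 B cell markers were within 2-fold, summing to 240.3 CPM in the LPS+LCC-12 library and 203 CPM in the LPS library. Endothelial markers summed to 62.1 CPM in the LPS+LCC-12 library and 129 CPM in the LPS library, most of it Pecam1, with Tek and Emcn at 0 in the LPS library. Of the 7, only 2 had 50 or more counts. Pecam1 was at least 2-fold lower, and the other was higher but within 2-fold (log2 ratio 0.95). Platelet markers summed to 145 CPM in the LPS+LCC-12 library and 69.4 CPM in the LPS library, most of it Pf4, which macrophages also express. Of the 4 platelet markers with 50 or more counts, only Pf4 was at least 2-fold higher, and 2 others were at least 2-fold lower. Of all genes with 50 or more counts, 4.01% were at least 2-fold higher and 6.65% lower. Markers of T cells, NK cells, dendritic cells, eosinophils, fibroblasts and mesothelium summed to at most 5.00 CPM in the LPS+LCC-12 library and 12.4 CPM in the LPS library. Of these, Lum, Dpt, Epx and Prg2 were at 0 in both libraries. Wt1, Lrrn4, Pdgfra, Cd209a and Ear6 were at 0 in the LPS+LCC-12 library only, and Clec9a and Siglech in the LPS library only. The part of these cell markers in the values below was not tested. In bulk RNA, fewer cells of a type and less RNA per cell cannot be told apart.

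All 9 factors were well expressed, with at least 3430 counts in either library, and 8 of the 9 differed by less than 1.5-fold between the libraries. Klf4 was the exception, 2.15-fold higher with LCC-12. Where genes are counted as higher or lower, a difference of at least 2-fold is meant, read only for genes that reached 50 counts in at least 1 library. By this rule 1 of 9 factors was higher and 0 were lower, whereas of 13482 genes 4.01% were higher and 6.65% were lower. Among the 2512 genes with at least as many counts as the factor with the fewest in its higher library, 2.27% were at least 2-fold higher and 4.58% lower (6.85% in either direction, against 10.7% of all 13482). Genes at least 1.5-fold apart made up 23.0% of all 13482 and 16.6% of the 2512, against 1 of the 9 factors. The factors' median log2 ratio, LPS+LCC-12 over LPS, was 0.06, and that of all 13482 genes was 0.02. Counting intervals lay above 0 for Zeb2, Maf, Klf2, Klf4 and Cebpa, where 36.5% of all genes had such an interval, and below 0 for Spi1, Cebpd, Runx1 and Rara, where 32.9% did.

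**Figure D1:**
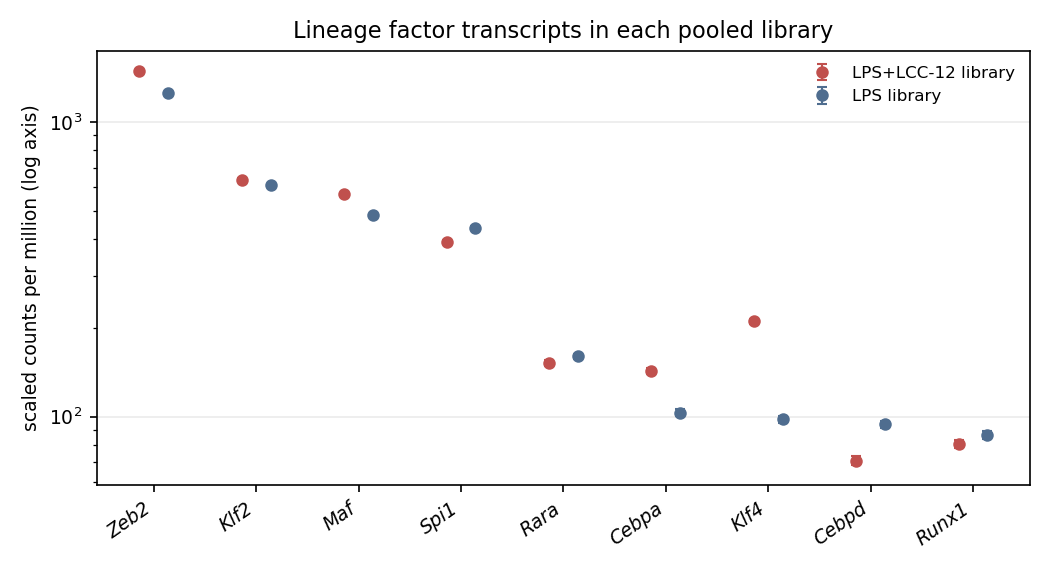
Scaled CPM (log axis) of the 9 lineage factors in the LPS+LCC-12 library (red) and the LPS library (blue), ordered by their level in the LPS library. Bars are exact 95% Poisson intervals of the counts, mostly smaller than the points, and the widest gap is that of Klf4, with 211 CPM in the LPS+LCC-12 library and 97.8 CPM in the LPS library.

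**Figure D2:**
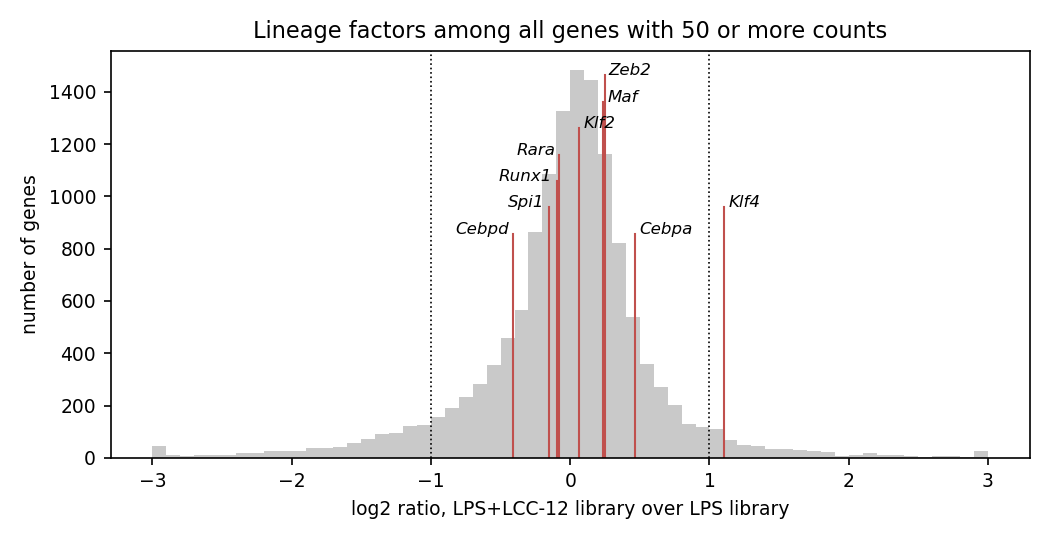
Log2 ratios of the 13482 genes that reached 50 counts in at least 1 library (grey, number of genes per bin, with values beyond 3 or -3 gathered in the outermost bins) and of the 9 factors (red lines). Dotted lines mark 2-fold, and Klf4 at 1.11 is the factor outside them, while Cebpd at -0.41 is the lowest.

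Within each library the factors spanned a wide range of levels per length, in CPM per kilobase of annotated exon. In the LPS+LCC-12 library Klf2 was highest at 345 CPM per kb and Spi1 followed at 146. Zeb2 at 74.4, Klf4 at 69.1, Maf at 68.9 and Cebpa at 54.1 CPM per kb formed a middle group, and the counting intervals of Klf4 and Maf overlapped. Rara at 34.7, Cebpd at 18.9 and Runx1 at 6.73 CPM per kb were lowest. In the LPS library Klf2 at 329.8, Spi1 at 162 and Zeb2 at 62.7 CPM per kb again came first, but Klf4 stood seventh at 32.1 CPM per kb, below Maf at 58.5, Cebpa at 39.1 and Rara at 36.7. Cebpd at 25.1 and Runx1 at 7.20 CPM per kb closed that order. So Klf4 held rank 4 of 9 in the LPS+LCC-12 library and rank 7 in the LPS library by this length, with Maf close behind it in the LPS+LCC-12 library. These levels depend on the length used, most of all for Zeb2, which has 29 annotated transcripts. With the longest transcript as length, Zeb2 had 162.6 CPM per kb in the LPS+LCC-12 library and 137 in the LPS library, at rank 3 in each. By that length Klf4 held rank 5 in the LPS+LCC-12 library, at 69.6 CPM per kb and below Maf at 89.3, and rank 7 in the LPS library.

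Spi1 (ENSMUSG00000002111, chromosome 2, 91082390 to 91115756, plus strand, GRCm38) encodes PU.1, the ETS factor on which all macrophage development depends. It had 18987 counts (393 CPM) in the LPS+LCC-12 library and 21829 counts (437 CPM) in the LPS library. The LPS+LCC-12 library was the lower by 1.11-fold (log2 ratio -0.16, 95% interval -0.18 to -0.13), a small difference that exceeded counting error. Its relatives Spib, an ETS factor of B and plasmacytoid dendritic cells, and Spic, a factor of iron-recycling macrophages, were scarce, and Spi1 held 98.5% of the counts of the 3 genes in each library. Spic had 36 counts in the LPS+LCC-12 library and 80 counts in the LPS library and was 2.14-fold lower (log2 ratio -1.10, -1.72 to -0.52). It was the only one of 13 related ETS genes past 2-fold, where 10.7% of all genes were. The median log2 ratio of the 13 was 0.09.

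Of 12 genes that PU.1 is known to activate, 1 was past 2-fold, where 10.7% of all genes were. Their median log2 ratio was 0.05, over 6 genes with a counting interval above 0 and 6 with one below 0. Of all genes, 36.5% had an interval above 0 and 32.9% had one below 0. The gene past 2-fold was Csf3r, the G-CSF receptor, with 27811 counts in the LPS+LCC-12 library and 69778 counts in the LPS library (log2 ratio -1.28, -1.30 to -1.26). Csf3r is also a neutrophil marker, and it stands in the neutrophil list whose sum was lower in the same library.

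Runx1 (ENSMUSG00000022952, chromosome 16, 92601466 to 92826149, minus strand) encodes a Runt-domain factor that primes the Spi1 gene in blood stem cells. It had 3913 counts (80.9 CPM) in the LPS+LCC-12 library and 4324 counts (86.6 CPM) in the LPS library, 1.07-fold lower (log2 ratio -0.10, -0.16 to -0.04). Scaled by total counts, its ratio was -0.06 with an interval that spans 0. Runx2, a relative best known from bone and also expressed in some immune cells, had 225 counts (4.65 CPM) in the LPS+LCC-12 library and 622 counts (12.5 CPM) in the LPS library, 2.67-fold lower (log2 ratio -1.42, -1.65 to -1.20). Runx3, known from T cells and dendritic cells, was close to Runx1 and had 908 counts in the LPS+LCC-12 library and 1034 in the LPS library (log2 ratio -0.14, -0.27 to -0.01). Of the counts of the 3 genes, Runx2 held 4.46% (3.91 to 5.07) in the LPS+LCC-12 library and 10.4% (9.64 to 11.2) in the LPS library, a split that no scaling can alter. Cbfb, the partner that stabilises RUNX proteins on DNA, had a log2 ratio of 0.18 (0.13 to 0.24).

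The C/EBP genes went different ways. Cebpa (ENSMUSG00000034957, chromosome 7, 35119293 to 35121928, plus strand) encodes C/EBPα, which drives progenitors toward the myeloid fate. It had 6894 counts (143 CPM) in the LPS+LCC-12 library and 5145 counts (103 CPM) in the LPS library, 1.38-fold higher (log2 ratio 0.47, 0.42 to 0.52). Cebpd (ENSMUSG00000071637, chromosome 16, 15887286 to 15891031, plus strand) encodes C/EBPδ, an acute-phase factor that LPS induces in macrophages. It had 3430 counts (70.9 CPM) in the LPS+LCC-12 library and 4702 counts (94.2 CPM) in the LPS library, 1.33-fold lower (log2 ratio -0.41, -0.47 to -0.35). Of all genes, 18.7% had a lower ratio than Cebpd, and part of its exons overlaps Spidr on the other strand. Within the pair Cebpd held 33.2% of the counts (32.3 to 34.1) in the LPS+LCC-12 library and 47.8% (46.8 to 48.7) in the LPS library.

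Cebpb, the inflammatory C/EBP of macrophages, outnumbered both of them, with 52357 counts in the LPS+LCC-12 library and 63894 counts in the LPS library (log2 ratio -0.24, -0.26 to -0.22). Cebpe, known from late granulocyte development, was scarce but higher, with 284 counts in the LPS+LCC-12 library and 164 in the LPS library (log2 ratio 0.84, 0.56 to 1.12). Ddit3, the stress-induced C/EBP relative known as CHOP, had 814 counts in the LPS+LCC-12 library and 1663 counts in the LPS library (log2 ratio -0.98, -1.11 to -0.86), and the ratio ran from -1.02 to -0.92 over the scalings tried. Of 9 measured C/EBP target genes 3 were at least 2-fold lower, where 6.65% of all genes were. None was higher, where 4.01% of all genes were, and the median log2 ratio was -0.35. The 3 were Ltf and Lcn2, which encode granule proteins of neutrophils, and Csf3r, and Ltf and Csf3r are members of the neutrophil marker list. Cd14, the LPS co-receptor, and Saa3, an acute-phase gene, had log2 ratios of -0.37 and -0.16. These were named after their values were seen and do not stand for the rest of the list. Over all 9 targets, counting intervals lay below 0 for 6 and above 0 for 1, and spanned 0 for the rest. Of all genes, 32.9% had an interval below 0 and 36.5% had one above 0.

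Maf (ENSMUSG00000055435, chromosome 8, 115682942 to 115707794, minus strand) encodes c-MAF, which keeps macrophages differentiated. It had 27471 counts (568 CPM) in the LPS+LCC-12 library and 24074 counts (482 CPM) in the LPS library, 1.18-fold higher (log2 ratio 0.24, 0.21 to 0.26). The small MAF genes Mafg, Mafk and Maff, whose proteins lack an activation domain, were each lower. The log2 ratio of Mafg was -0.22 (-0.26 to -0.18), that of Mafk was -0.38 (-0.47 to -0.29), and that of Maff was -0.51 (-0.76 to -0.26).

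Genes reported as targets of large MAF factors were mostly higher. Of 10 with 50 or more counts, 7 were at least 2-fold higher, where 4.01% of all genes were. Only 1 was lower, where 6.65% of all genes were, and the median log2 ratio was 1.33. Cd5l, a secreted scavenger protein, had 10022 counts in the LPS+LCC-12 library and 466 counts in the LPS library. Cd163 and Mrc1, scavenger and mannose receptors, were 5.57-fold and 3.42-fold higher, and Folr2, a folate receptor of resident macrophages, 3.12-fold. C1qa and C1qb, which encode chains of complement C1q, were 2.67-fold and 2.37-fold higher. The lower gene was Il10, named after its value was seen, with 114 counts in the LPS+LCC-12 library and 263 counts in the LPS library. Cd5l and Mrc1 are also in the peritoneal macrophage marker lists that were higher in the LPS+LCC-12 library, so the lists are not separate measurements.

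The Krüppel-like factors Klf2 and Klf4 are close relatives that bind GC-rich and CACCC sites, and they differed between the libraries in unlike ways. Their promoters are shown because the genes are paralogs of which Klf4 was past 2-fold. Each line gives the 250 bases before the annotated start, 5′ to 3′ on the gene's strand, with every GC box (GGGCGG on either strand) in capitals, from RefSeq on GRCm38.p6. The Klf4 window is chr4:55532476-55532725 on the minus strand, and the Klf2 window is chr8:72318812-72319061 on the plus strand.
Klf4: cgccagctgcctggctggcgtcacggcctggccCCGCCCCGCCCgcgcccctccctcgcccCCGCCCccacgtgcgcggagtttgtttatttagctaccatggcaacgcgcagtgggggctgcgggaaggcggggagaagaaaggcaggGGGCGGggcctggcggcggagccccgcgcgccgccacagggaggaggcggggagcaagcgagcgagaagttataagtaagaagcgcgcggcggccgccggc
Klf2: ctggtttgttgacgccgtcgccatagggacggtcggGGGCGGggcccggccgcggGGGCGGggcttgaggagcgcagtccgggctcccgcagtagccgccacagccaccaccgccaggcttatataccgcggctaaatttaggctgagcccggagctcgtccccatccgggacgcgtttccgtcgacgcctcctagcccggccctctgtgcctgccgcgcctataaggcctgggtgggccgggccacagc
The Klf4 stretch held 4 GC boxes, the first 2 of which overlap by 1 base, and the Klf2 stretch held 2. Of all 32851 RefSeq windows of 300 bases, from 250 before to 50 after a start, 35.7% held at least 1. Neither window held the CACCC box CCACACCC, which 3.56% of all windows held. A motif match is a description of the letters and was not tested as a binding site.

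Klf4 (ENSMUSG00000003032, chromosome 4, 55527143 to 55532466, minus strand) had 10196 counts (211 CPM) in the LPS+LCC-12 library and 4885 counts (97.8 CPM) in the LPS library. It was 2.15-fold higher (log2 ratio 1.11, 1.06 to 1.16), and 3.14% of all genes had a higher ratio. Klf2 (ENSMUSG00000055148, chromosome 8, 72319033 to 72321656, plus strand) had 30798 counts (637 CPM) in the LPS+LCC-12 library and 30420 counts (609 CPM) in the LPS library. Its difference of 1.05-fold (log2 ratio 0.06, 0.04 to 0.09) was past counting error and small beside that of Klf4. Of the counts of the pair, Klf4 held 24.9% (24.5 to 25.3) in the LPS+LCC-12 library and 13.8% (13.5 to 14.2) in the LPS library. Per exon length its share was 16.7% in the LPS+LCC-12 library and 8.87% in the LPS library.

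Of 11 other KLF genes with 50 or more counts, 10 were within 2-fold and the median log2 ratio was -0.11. Of all genes, 10.7% were past 2-fold. Klf5, an epithelial and stem cell factor, had 336 counts in the LPS+LCC-12 library and 702 counts in the LPS library (log2 ratio -1.02, -1.21 to -0.83) and was within 2-fold under some of the other scalings, where its ratio ran from -1.05 to -0.96. Klf10, which TGF-β induces, was higher with a log2 ratio of 0.57 (0.52 to 0.62), and Klf6 was lower at -0.22 (-0.25 to -0.20). Genes reported as targets of Klf2 or Klf4 varied. Retnla, S1pr1 and Mrc1 were 6.34-fold, 3.61-fold and 3.42-fold higher, and 3 others were within 2-fold. Retnla and Mrc1 are also in the small peritoneal macrophage list, most of which was higher in the same library. Nos3 and Thbd, endothelial targets of the pair, had 12 and 2293 counts in the LPS+LCC-12 library and 2 and 2100 counts in the LPS library.

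**Figure D3:**
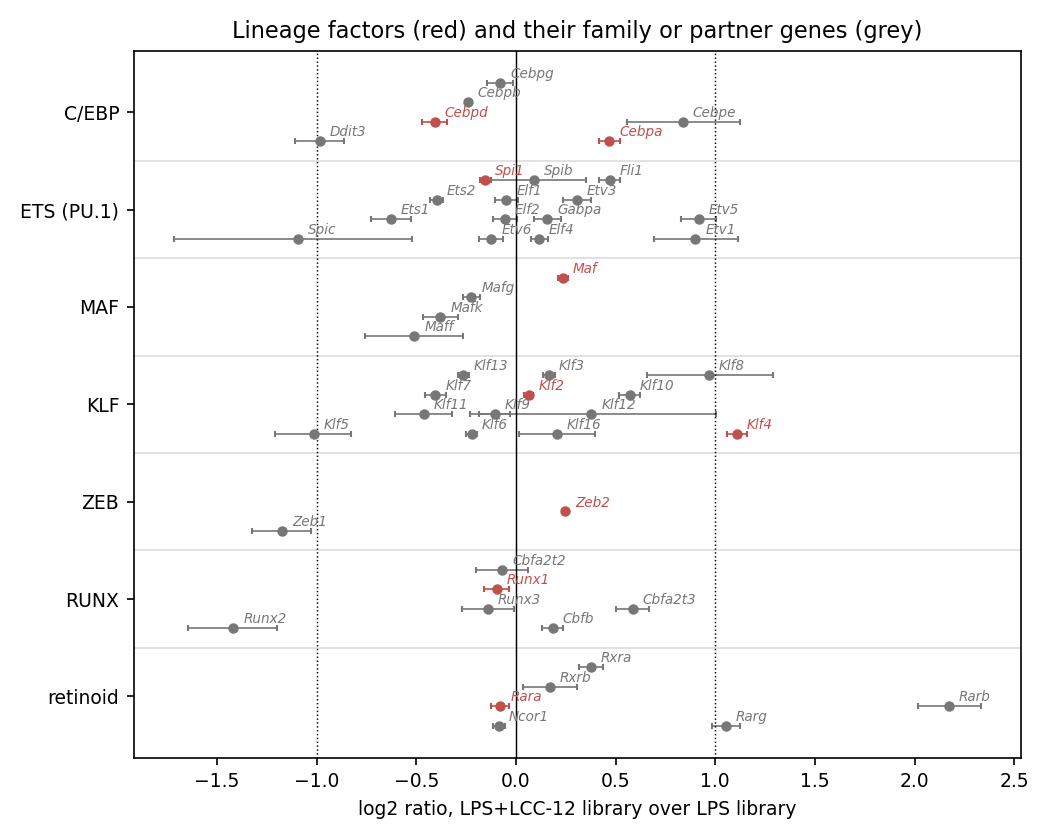
Log2 ratios, LPS+LCC-12 over LPS, of the 9 factors (red) and of the family or partner genes reported here, each with 50 or more counts (grey), 1 row per family. Bars are exact 95% counting intervals and dotted lines mark 2-fold, with Rarb farthest right at 2.17 and Runx2 farthest left at -1.42.

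Zeb2 (ENSMUSG00000026872, chromosome 2, 44983632 to 45117395, minus strand) encodes a zinc finger repressor that binds E-boxes and is needed for the identity of resident macrophages. It had the most counts of the 9, with 71758 (1484 CPM) in the LPS+LCC-12 library and 62456 (1251 CPM) in the LPS library. It was 1.19-fold higher (log2 ratio 0.25, 0.23 to 0.26). Zeb1, its paralog best known from epithelial to mesenchymal transition, went the other way, with 531 counts (11.0 CPM) in the LPS+LCC-12 library and 1238 counts (24.8 CPM) in the LPS library, 2.26-fold lower (log2 ratio -1.17, -1.32 to -1.03). Zeb2 made up 99.3% of the counts of the pair in the LPS+LCC-12 library and 98.1% in the LPS library. Mesothelial and fibroblast markers, from cells in which Zeb1 is known, were also lower in the LPS+LCC-12 library. They summed to 1.36 and 3.64 CPM there and to 8.09 and 12.4 CPM in the LPS library. Their part in the Zeb1 value was not tested. Of 3 genes listed for Zeb2, Cdh1 encodes E-cadherin and is known to be repressed by ZEB2. It had 73 counts in the LPS+LCC-12 library and 30 in the LPS library (log2 ratio 1.31, 0.70 to 1.99). Id2, an inhibitor of helix-loop-helix factors, had a log2 ratio of -0.66 (-0.72 to -0.60) and Nr1h3, which encodes LXRα, of 0.07, with an interval that spans 0 and ends at 0.14.

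Rara (ENSMUSG00000037992, chromosome 11, 98927818 to 98974942, plus strand) encodes the retinoic acid receptor with the most counts in both libraries. It had 7336 counts (152 CPM) in the LPS+LCC-12 library and 7999 counts (160.2 CPM) in the LPS library, 1.06-fold lower (log2 ratio -0.08, -0.12 to -0.03). Scaled by total counts, its ratio was -0.04 with an interval that spans 0. The other two retinoic acid receptors were higher. Rarb, whose own promoter is a textbook target of retinoic acid, had 1771 counts (36.6 CPM) in the LPS+LCC-12 library and 405 counts (8.11 CPM) in the LPS library, 4.51-fold higher (log2 ratio 2.17, 2.02 to 2.33). Rarg had 5008 counts (104 CPM) in the LPS+LCC-12 library and 2491 counts (49.9 CPM) in the LPS library, 2.08-fold higher (log2 ratio 1.05, 0.98 to 1.12). Within the family the share of Rara was 52.0% (51.1 to 52.8) in the LPS+LCC-12 library and 73.4% (72.6 to 74.2) in the LPS library. Rarb held 12.5% (12.0 to 13.1) in the LPS+LCC-12 library and 3.72% (3.37 to 4.09) in the LPS library, and Rarg held 35.5% (34.7 to 36.3) in the LPS+LCC-12 library and 22.9% (22.1 to 23.7) in the LPS library. The partner receptor gene Rxra was 1.30-fold higher (log2 ratio 0.38, 0.32 to 0.44), and Rxrb had 0.17 (0.03 to 0.31). Ncor1, a corepressor that silences unliganded receptors, had a log2 ratio of -0.09 (-0.12 to -0.06).

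**Figure D4:**
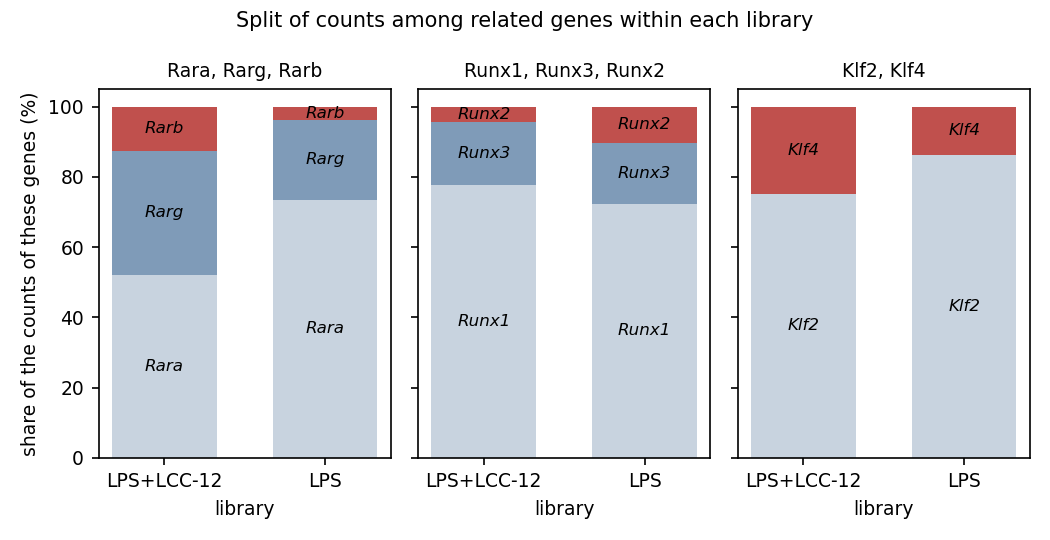
Share of counts (percent) that each gene held among Rara, Rarg and Rarb, among Runx1, Runx3 and Runx2, and between Klf2 and Klf4, in the LPS+LCC-12 library (left bars) and the LPS library (right bars). Rarb and Klf4 hold larger shares in the LPS+LCC-12 library, at 12.5% against 3.72% and 24.9% against 13.8% in the LPS library, and Runx2 a smaller one, at 4.46% against 10.4% in the LPS library.

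The promoters of Rarb and of Cyp26a1, a retinoic acid-degrading enzyme, are shown because they hold the element through which retinoic acid receptors act. The capitals mark GTTCA followed after 6 bases of any kind by GTTCA again, or the reverse complement of that motif, the core of a direct repeat of hexamers with a spacer of 5 bases. The stretches, again the 250 bases before the start from RefSeq on GRCm38.p6, are chr14:16575477-16575726 on the minus strand for Rarb and chr19:37697558-37697807 on the plus strand for Cyp26a1.
Rarb: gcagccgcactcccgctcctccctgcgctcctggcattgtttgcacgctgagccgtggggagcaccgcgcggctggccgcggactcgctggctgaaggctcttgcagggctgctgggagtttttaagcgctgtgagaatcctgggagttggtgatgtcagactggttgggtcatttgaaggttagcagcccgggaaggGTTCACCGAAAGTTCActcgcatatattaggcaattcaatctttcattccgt
Cyp26a1: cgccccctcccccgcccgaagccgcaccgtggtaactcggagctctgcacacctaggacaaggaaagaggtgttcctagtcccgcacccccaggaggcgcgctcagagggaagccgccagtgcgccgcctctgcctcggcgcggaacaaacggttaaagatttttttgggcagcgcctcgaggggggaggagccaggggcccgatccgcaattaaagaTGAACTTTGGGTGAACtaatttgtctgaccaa
The repeat lay from -52 to -37 in Rarb and from -32 to -17 in Cyp26a1, counted from the annotated start. Only 25 of the 32851 windows (0.0761%) held it on either strand, and none of the 13 windows of 6 lineage factors in the table did, the windows of Rara included. Of the 7 retinoid genes with a window, the other 5 (Aldh1a2, Rarg, Cyp26b1, Dhrs3 and Rxra) did not hold it there either.

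Genes of the retinoic acid pathway were higher or within 2-fold. Of 14 listed genes 6 had 50 or more counts, with a median log2 ratio of 1.11. Of these 6, 3 were at least 2-fold higher, where 4.01% of all genes were, and none was lower, where 6.65% were. The 3 were Rarb, already given among the receptors, Aldh1a2 and Cyp26b1. Aldh1a2, which makes retinoic acid from retinal, had 1217 counts (25.2 CPM) in the LPS+LCC-12 library and 230 counts (4.61 CPM) in the LPS library, 5.45-fold higher (log2 ratio 2.45, 2.25 to 2.66). Cyp26b1, which degrades retinoic acid, had 55 counts in the LPS+LCC-12 library and 19 counts in the LPS library (log2 ratio 1.55, 0.80 to 2.41). Cyp26a1, named here for its promoter after its value was seen, was under the minimum with 42 counts in the LPS+LCC-12 library and 12 in the LPS library (log2 ratio 1.81, 0.90 to 2.91). Dhrs3 and Tgm2, a retinal reductase and a transglutaminase that retinoic acid induces, were also named after their values were seen. They had log2 ratios of 0.67 (0.62 to 0.71) and 0.39 (0.35 to 0.42). The last of the 6, Rdh10, which makes retinal from retinol, had 212 counts in the LPS+LCC-12 library and 231 in the LPS library (log2 ratio -0.08, -0.35 to 0.20). The synthesis genes Aldh1a1 and Aldh1a3 had 3 counts and 1 count in the LPS+LCC-12 library and 8 and 7 counts in the LPS library. Crabp1 and Rbp4 were at 0 in both. The markers of small and large peritoneal macrophages were higher in the same library, and their part in the retinoid values was not tested. Gata6, the retinoic acid-dependent factor of large peritoneal macrophages, had 720 counts (14.9 CPM) in the LPS+LCC-12 library and 529 counts (10.6 CPM) in the LPS library (log2 ratio 0.49, 0.33 to 0.66).

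**Figure D5:**
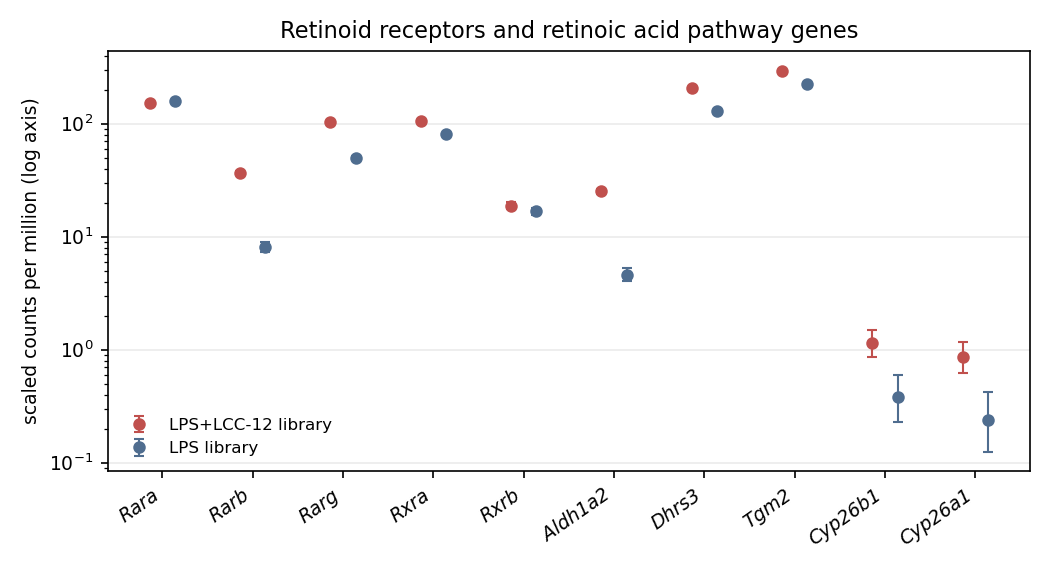
Scaled CPM (log axis) of retinoid receptor and retinoic acid pathway genes in the LPS+LCC-12 library (red) and the LPS library (blue), with exact 95% Poisson intervals. Rara is nearly level between the libraries, at 152 CPM in the LPS+LCC-12 library and 160.2 CPM in the LPS library. Rarb lies at 36.6 CPM in the LPS+LCC-12 library and 8.11 CPM in the LPS library, and Aldh1a2 at 25.2 CPM in the LPS+LCC-12 library and 4.61 CPM in the LPS library.

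Of 76 related transcription factors 66 had 50 or more counts, of which 5 were at least 2-fold higher and 4 lower, with a median log2 ratio of 0.08. Of all genes, 4.01% were higher and 6.65% lower. The lower ones were Runx2, Zeb1, Spic and Klf5, and the higher ones were Irf4, Rarb, Pparg, Mef2c and Rarg. Among these 66, the ratio nearest to that of Klf4 was the 1.05 of Rarg, followed by the 1.24 of Mef2c. Nearest to Cebpa were Fli1 at 0.47 and Gata6 at 0.49, and nearest to Cebpd were Klf7 at -0.40 and Ets2 at -0.40. With 2 libraries, such likeness is only nearness of a single ratio.

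Several of the factors share exon bases with a gene on the opposite strand, and how the counting used strand is not given in the sources used here. If the counting did not use strand, reads from such stretches cannot be told apart. Cebpd shares 562 bases, 15.0% of its exons, with Spidr, a DNA repair gene that had 2403 counts in the LPS+LCC-12 library and 3369 counts in the LPS library (log2 ratio -0.44, -0.52 to -0.37). The ratio of Cebpd itself was -0.41. Maf shares 440 bases (5.34%) with the antisense gene Gm15655, which had 296 counts in the LPS+LCC-12 library and 419 in the LPS library (log2 ratio -0.45, -0.67 to -0.24), opposite to the direction of Maf. Zeb2 shares 653 bases (3.27%) with the antisense gene Zeb2os, which had 633 counts in the LPS+LCC-12 library and 847 counts in the LPS library (log2 ratio -0.37, -0.52 to -0.22), also opposite to Zeb2. Runx1 shares 106 bases (0.881%) with Gm26626, which had 39 counts in the LPS+LCC-12 library and 106 in the LPS library (log2 ratio -1.39, -1.97 to -0.85). Cebpa shares 51 bases with Gm45091, which had 11 counts in the LPS+LCC-12 library and 6 counts in the LPS library. Mir5129 lies within Zeb2 on its strand, shares 5 exon bases with it and had 43 counts in the LPS+LCC-12 library and 10 in the LPS library, and Gm27761 shares 4 bases and had 0 in both. Mybpc3, a cardiac myosin-binding gene, starts within 10 kb of Spi1 and had 1097 counts in the LPS+LCC-12 library and 1415 counts in the LPS library. Klf2, Klf4, Spi1 and Rara share no exon bases with another gene.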

How the data were processed

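RNA of small peritoneal macrophages sorted from pooled mice was sequenced as 1 library per group. The labels name poly(A) RNA, while their protocols describe total RNA, of which 10 ng was fragmented for 4 minutes, made into stranded libraries with ribosomal depletion and 12 PCR cycles, and read as pairs of 100 bp. The authors deposited whole-number counts for each gene, with no normalization. STAR and mm10 are named in the submitters' processing notes. For the counting tool, strand setting and annotation, the entry is: not given in the sources used here.

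Symbols, coordinates and exon lengths came from GENCODE M21 (GRCm38) by gene ID. Of 55487 IDs 55394 matched. The 93 without a match summed to 325 counts (LPS+LCC-12) and 304 counts (LPS). The symbol Ddit3 has several IDs and was read from the ID with the most counts. The labels' library codes gave each column its group. Scaling used TMM in edgeR 4.0.16 (R 4.3.3). For log2 ratios 0.5 counts were added, weighted by scaled library size. Ratios and shares have exact 95% Clopper-Pearson intervals, and CPM levels exact Poisson intervals (scipy 1.17.1). PCR copies are not independent molecules, so intervals cover counting error only. The calculation was tested on simulated data.

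Lists of families, targets and markers were made from general knowledge. All 9 factors were described. Family genes with 50 or more counts could be named. From each other list up to 6 genes past 2-fold were named. Genes that overlap a factor or start within 10 kb of it were examined. The factors and lists were chosen with earlier results of these data known. Promoter windows are RefSeq's on GRCm38.p6, and 6 of the 9 factors matched. Alternatives were 4 other scalings, 5 added counts, minimums of 1, 10 and 200 counts, limits of 1.5-fold and 3-fold, protein-coding genes only for the background, and another gene length. A few listed genes are not reported here, though list counts, medians and sums include them.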

Additional observations from a re-analysis of the deposited data

How the results depend on the processing

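Klf4 was the factor past 2-fold under all 4 other scalings and with 5 added counts, and its log2 ratio ran from 1.07 to 1.17. With a 3-fold limit 0 factors were higher, and 0 were lower at 1.5-fold, 2-fold and 3-fold alike. The 45 ratios of the 9 factors recomputed under settings that can move them (scalings and added counts) kept their sign, with a largest shift of 0.06. Counting intervals lay below 0 for 2 factors in place of 4 when scaled by total counts, or by totals without the 100 most abundant and the mitochondrial genes, so the small differences of Runx1 and Rara rest on the scaling. Of the related factors and targets, 26 genes were at least 2-fold apart, against 40 with no count minimum, 40 at a 1.5-fold limit and 10 at a 3-fold limit. The count with no minimum is out of a larger set of genes than the 26, so these are not shares of the same set. The background of 10.7% of genes at least 2-fold apart became 21.1% with at least 10 counts, 7.03% with at least 200, 39.7% with no minimum, 23.0% at 1.5-fold, 3.97% at 3-fold and 8.27% among protein-coding genes, each change following from which genes or folds are counted. The median log2 ratio of the retinoic acid pathway, 1.11, was 0.67 over its genes with at least 200 counts, and that of the Klf2 or Klf4 targets, 0.63, was 1.20 with at least 10. With the longest transcript as the length, 35 of the 36 pairs of factors kept their order in each library. No paired analysis was possible because each group is 1 library, and no replicate could be left out. Depth does not limit the 9 factors, whereas Spic, Cyp26a1, Cyp26b1 and Cdh1 rest on fewer than 100 counts.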

Other observations

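Other factors of macrophages and blood cells belong to no family above. Of 22 with 50 or more counts, 3 were at least 2-fold higher in the LPS+LCC-12 library, where 4.01% of all genes were. None was lower, where 6.65% of all genes were, and the median log2 ratio was 0.10. Counting intervals lay above 0 for 10 of the 22 and below 0 for 4, where 36.5% and 32.9% of all genes had such intervals. Irf4, an interferon regulatory factor of monocyte-derived and alternatively activated macrophages, had 1553 counts in the LPS+LCC-12 library and 342 counts in the LPS library, 4.68-fold higher (log2 ratio 2.23, 2.06 to 2.40). Irf4 is also in the small peritoneal macrophage list, of which 10 of 11 genes were higher in the same library. Pparg, a lipid-sensing receptor, was 3.64-fold higher, at 188 counts in the LPS+LCC-12 library and 53 counts in the LPS library (log2 ratio 1.86, 1.43 to 2.34). Mef2c, a MADS-box factor of myeloid and B cells, was 2.37-fold higher, at 1831 counts in the LPS+LCC-12 library and 799 in the LPS library (log2 ratio 1.24, 1.12 to 1.36). Irf8, the interferon regulatory factor that monocytes need, had an interval that spans 0, with 4574 counts in the LPS+LCC-12 library and 4556 counts in the LPS library (log2 ratio 0.05, -0.01 to 0.11). Nfil3, a basic leucine zipper factor, was the lowest of the 22, with 2911 counts in the LPS+LCC-12 library and 5233 in the LPS library (log2 ratio -0.80, -0.87 to -0.73). Nfil3 was named after its value was seen.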
